A study of Mus musculus with 5 samples.

Results

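The genes described here are 10 transcription factors that shape effector CD4 T cells, both conventional helper cells and regulatory T cells (Tregs): Batf, Irf4, Maf, Prdm1, Ahr, Bhlhe40, Id2, Nfil3, Eomes and Zeb2. They were taken by gene symbol, each symbol matched 1 gene, and they make up 10 of the 31053 genes counted. Batf, an AP-1 family protein without a transactivation domain of its own, binds DNA together with Jun proteins and Irf4 and opens chromatin after antigen receptor signalling. Maf and Prdm1 (Blimp-1) are known for Il10 expression and restraint in effector cells, and Ahr is a ligand-sensing receptor found in Tregs and IL-17-producing cells of barrier tissues. Id2 blocks E proteins, Bhlhe40 and Nfil3 are repressors with roles in cytokine expression and the circadian clock, and Eomes and Zeb2 are best known from cytotoxic and terminally differentiated lymphocytes.

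The study asked what Tregs carrying ST2, the IL-33 receptor encoded by Il1rl1, do in the injured kidney. CD4 T cells were sorted from kidneys of 10-week-old mice after unilateral ischemia-reperfusion injury, in which blood flow is stopped and then restored, and read by droplet-based single-cell 3′ RNA sequencing. Both groups carry the loxP-flanked Il1rl1fl/fl alleles: 2 control libraries came from Il1rl1fl/fl mice and 3 libraries labelled knockout from mice that also carry Foxp3YFP-Cre (Il1rl1fl/fl Foxp3YFP-Cre). That allele makes Cre where Foxp3, the master factor of Tregs, is transcribed. Only the knockout label has the Cre allele, so its effects and those of Il1rl1 loss cannot be told apart. The labels do not say that the libraries are separate animals, so p-values measure the spread between libraries, which may be technical.

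Cells were gated by raw counts of unique molecular identifiers (UMIs, 1 per captured transcript). Foxp3+ cells had at least 1 Foxp3 UMI (807 and 627 cells in the controls; 315, 863 and 383 in the libraries labelled knockout). They were split into Il1rl1+ cells (250, 116, 167, 203 and 83) and Il1rl1- cells. Foxp3- Cd4+ cells had no Foxp3 UMI and at least 1 Cd4 UMI (7417, 5783, 3142, 7129 and 3507). A cell can lack a UMI of a gene it transcribes, so the negative gates also hold cells of the positive kind. Levels are CPM, a gene's UMIs per 1000000 UMIs of the gate, given in the order control 1 and 2, then knockout 1, 2 and 3.

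Depth differed widely between the libraries. The median was 13534 and 3786 UMIs per cell in the controls, and 7546, 4433 and 4116 in the libraries labelled knockout, so control 1 stands apart. No pair of libraries shared more than 39 cell barcodes. T cell markers (Cd3e, Cd3d, Cd3g, Trac and Cd4) were present at a summed 2309 to 2555 CPM in Foxp3+ cells of every library. Il1rl1 itself was at 74.2 and 54.8 CPM in control Foxp3+ cells and at 128, 53.9 and 51.6 CPM in Foxp3+ cells labelled knockout. In Foxp3- Cd4+ cells it was at 8.87 and 9.04 CPM in the controls and higher in every library labelled knockout, at 57.6, 35.3 and 24.1 CPM. Foxp3 in Foxp3+ cells was at 263 and 333 CPM in the controls and at 232, 207 and 199 CPM under the knockout label. The groups again did not overlap, but Foxp3 sets that gate, so its level there depends on which cells were selected. Of all genes tested, 22.2% did not overlap between the groups in Foxp3+ cells and 18.8% in Foxp3- Cd4+ cells. The 3′ reads do not show whether the loxP-flanked part is missing, and the deleted exons are not given in the sources used here. The 7 macrophage markers (C1qa, C1qb, C1qc, Csf1r, Adgre1, Lyz2 and Cd68) were detected in every library and were all higher on average under the knockout label. Their sum in Foxp3+ cells was 559 and 891 CPM in the controls and 1046, 1153 and 1543 CPM under the knockout label. For Foxp3- Cd4+ cells it was 421 and 863 CPM against 640.2, 745 and 987 CPM. Results are therefore also given for T cells only, meaning cells with a Cd3 or Trac UMI and at most 5 per 10000 UMIs from 12 macrophage, B, CD8 and NK cell markers. There the macrophage sum in Foxp3+ cells was 44.2 and 32.0 CPM in the controls and 44.8, 42.5 and 46.5 CPM under the knockout label. The filter counts C1qa, C1qb, C1qc, Csf1r and Lyz2, which are also in this sum, and so itself lowers it. The sum is therefore no independent measure of the macrophage RNA left. Fewer cells of a type and less RNA per cell cannot be told apart in sums over a gate.

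All 10 genes lie on mm10 autosomes in GENCODE M21. Batf spans chr12:85686669-85709087 (plus strand), Irf4 chr13:30749226-30766976 (plus), Maf chr8:115682942-115707794 (minus) and Prdm1 chr10:44437177-44528501 (minus). Ahr spans chr12:35497974-35535038 (minus), Bhlhe40 chr6:108660629-108666925 (plus) and Id2 chr12:25093799-25097140 (minus). Nfil3 spans chr13:52967209-52981073 (minus), Eomes chr9:118478212-118486132 (plus) and Zeb2 chr2:44983632-45117395 (minus). The counted reads come from 3′ ends and so do not tell which start site was used. RefSeq's promoter table (GRCm38.p6) held 7 of the 10 genes. The 4 below are members whose level was higher in Foxp3+ cells, and they are shown because these genes passed in the same direction in that comparison. Each is printed 5′ to 3′ on the gene's strand, up to 250 bases before the RefSeq start, without bases that GENCODE M21 places in an exon, and capitals mark motif matches. They are Batf at chr12:85686470-85686668 (plus), Irf4 at chr13:30748983-30749225 (plus), Prdm1 at chr10:44458749-44458998 (minus) and Nfil3 at chr13:52981074-52981289 (minus). The Prdm1 window lies inside the span given for that gene, so its RefSeq start is not the outermost GENCODE start. The Id2 window and some Zeb2 windows, not printed, also lie inside their genes.
Batf promoter: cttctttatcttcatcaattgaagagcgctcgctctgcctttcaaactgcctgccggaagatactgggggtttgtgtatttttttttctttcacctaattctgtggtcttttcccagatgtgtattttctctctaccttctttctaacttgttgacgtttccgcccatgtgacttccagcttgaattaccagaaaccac
Irf4 promoter: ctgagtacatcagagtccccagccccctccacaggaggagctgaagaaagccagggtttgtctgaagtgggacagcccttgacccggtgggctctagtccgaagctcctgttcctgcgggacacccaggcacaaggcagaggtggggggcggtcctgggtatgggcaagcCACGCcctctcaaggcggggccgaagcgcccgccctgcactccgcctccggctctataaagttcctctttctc
Prdm1 promoter: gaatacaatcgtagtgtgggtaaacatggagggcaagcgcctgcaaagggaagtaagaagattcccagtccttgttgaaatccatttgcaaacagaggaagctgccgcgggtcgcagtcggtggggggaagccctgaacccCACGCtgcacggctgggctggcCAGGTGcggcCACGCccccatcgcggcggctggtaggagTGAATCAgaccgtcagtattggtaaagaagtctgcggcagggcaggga
Nfil3 promoter: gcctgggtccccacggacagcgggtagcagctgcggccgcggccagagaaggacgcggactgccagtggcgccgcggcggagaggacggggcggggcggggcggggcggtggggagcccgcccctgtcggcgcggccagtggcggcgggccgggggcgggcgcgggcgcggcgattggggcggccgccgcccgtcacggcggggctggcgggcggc

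Motifs were searched as letters on both strands in the 250 bases before each start. They were the AP-1 site TGANTCA, the Ahr core GCGTG, the paired interferon element (GAAA 2 times with 2 bases between), the E-boxes CACGTG and CACCTG, and the D-box TTANNTAA. Over 32851 promoters of the same length, 6.75% held TGANTCA, 28.2% GCGTG, 2.98% the paired element, 6.02% CACGTG, 17.2% CACCTG and 5.43% TTANNTAA. The Prdm1 window held 1 AP-1 match with its first base at -48 from the start, GCGTG matches at -109 and -77, and 1 CACCTG match at -87, none of which overlapped. The Irf4 window held 1 GCGTG match at -80. No motif matched in the Batf and Nfil3 windows, nor in that of Id2. The Eomes window, not printed, held 1 match to the paired interferon element at -154. Zeb2 had 4 windows in the table, also not printed. One of them held AP-1 matches at -189 and -132, and another held none. The remaining pair overlap each other and held the same GCGTG site, at -40 or -66 depending on the start. These matches describe letters in these windows and are not evidence of binding.

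The members divided between Foxp3+ cells and Foxp3- Cd4+ cells. Nfil3, Prdm1, Irf4, Ahr, Maf and Batf were higher in Foxp3+ than in Foxp3- Cd4+ cells of all 5 libraries, Id2 was lower in all 5, and Bhlhe40 was slightly lower. With edgeR's quasi-likelihood test and the library as a term, 2787 of 12994 genes (21.4%) passed an adjusted p of 0.05, 1549 of them higher (11.9%) and 1238 lower (9.53%). Of the 10 members, 6 passed as higher and 2 as lower. Their median log2 fold change was 0.51, against -0.02 over all genes tested.

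Batf and Irf4 act as partners on composite AP-1 and interferon elements. Batf stood at 118, 117, 119, 97.7 and 99.2 CPM in Foxp3+ cells and at 75.0, 77.8, 70.8, 80.7 and 71.9 CPM in Foxp3- Cd4+ cells. The gates did not overlap, and the highest value of any Foxp3- library lay below the lowest Foxp3+ library. The log2 fold change was 0.49 (SE 0.06, adjusted p = 0.000291), a ratio of 1.41. Irf4 stood at 22.6, 23.5, 26.3, 17.7 and 14.3 CPM in Foxp3+ cells and at 12.9, 11.8, 15.4, 11.7 and 8.86 CPM in Foxp3- Cd4+ cells, with a log2 fold change of 0.72 (SE 0.08, adjusted p = 0.000103). Irf4 was higher in Foxp3+ cells within each library, although the lowest Foxp3+ library lay under the highest Foxp3- one.

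Maf and Prdm1, the factors tied to Il10, showed the same direction. Maf reached 266, 235, 346, 271 and 280.0 CPM in Foxp3+ cells and 171, 161, 241, 192 and 174 CPM in Foxp3- Cd4+ cells, and knockout 1 was the highest library in both gates. Its log2 fold change was 0.52 (SE 0.04, adjusted p = 1.21e-05). Prdm1 stood at 51.5, 46.2, 60.9, 49.4 and 45.0 CPM against 23.5, 19.6, 26.2, 29.0 and 26.2 CPM, a ratio of 1.97, and every Foxp3+ value lay above every Foxp3- value (log2 fold change 0.98, SE 0.08, adjusted p = 1.91e-05). Ahr was at 42.3, 37.2, 48.2, 40.6 and 49.9 CPM against 18.6, 23.8, 37.2, 23.5 and 29.5 CPM, with log2 fold change 0.72 (SE 0.10, adjusted p = 0.000655). For Ahr the gates nearly touched but did not overlap: knockout 1 had 37.16 CPM in Foxp3- Cd4+ cells and control 2 had 37.24 CPM in Foxp3+ cells. Nfil3, a repressor of the basic leucine zipper family, was at 6.51, 13.1, 9.22, 6.28 and 4.87 CPM against 3.03, 4.28, 3.66, 4.59 and 3.23 CPM. All 5 Foxp3+ values lay above all 5 Foxp3- values, with control 2 highest, and the log2 fold change was 1.00 (SE 0.17, adjusted p = 0.00232).

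Id2 ran the other way. It was at 399.6, 376, 479, 469.7 and 572 CPM in Foxp3+ cells and at 697, 568, 766, 697 and 855 CPM in Foxp3- Cd4+ cells, 1.63 times as much in the latter (log2 fold change -0.70, SE 0.04, adjusted p = 4.75e-06). Each library was lower in its Foxp3+ cells. The highest Foxp3+ value, in knockout 3, lay just above the lowest Foxp3- value, in control 2. Bhlhe40 was at 50.2, 39.5, 58.2, 75.9 and 61.9 CPM against 48.7, 40.5, 64.8, 98.5 and 66.9 CPM and lower in Foxp3+ cells of 4 of 5 libraries. Its log2 fold change of -0.19 (SE 0.06) passed narrowly (adjusted p = 0.0486) and did not pass under 11 of 15 alternatives, where the adjusted p ran up to 0.859.

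Eomes and Zeb2 did not pass the test between the gates. Eomes was at 7.07, 12.3, 2.50, 3.49 and 1.15 CPM in Foxp3+ cells and 7.23, 1.92, 6.49, 6.17 and 3.28 CPM in Foxp3- Cd4+ cells (log2 fold change -0.01, SE 0.46, adjusted p = 0.995), and the libraries disagreed in direction. Zeb2 was at 192, 162, 269.6, 265 and 287 CPM against 161, 167, 183, 264 and 220.3 CPM (log2 fold change 0.18, SE 0.08, adjusted p = 0.129).

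**Figure D1:**
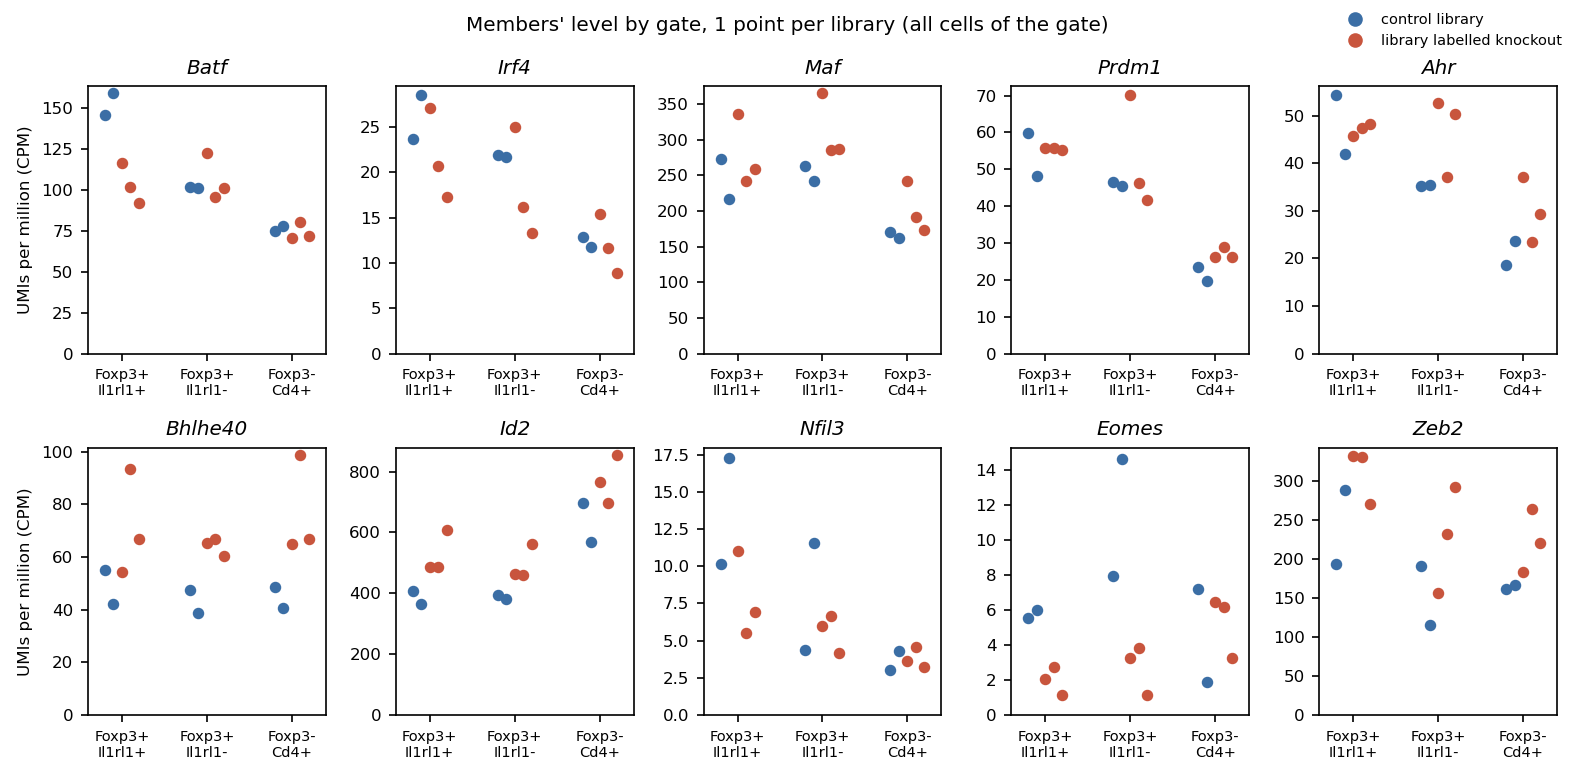
Level of each gene (CPM, y axis from 0, own scale per gene) in Foxp3+ Il1rl1+, Foxp3+ Il1rl1- and Foxp3- Cd4+ cells; each point is 1 library, blue for the 2 controls and red for the 3 libraries labelled knockout. Prdm1 points sit between 41.6 and 70.1 CPM in both Foxp3+ gates and between 19.6 and 29.0 CPM in Foxp3- Cd4+ cells, while Id2 is highest in Foxp3- Cd4+ cells.

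In T cells only, 2538 of 12225 genes (20.8%) passed, and the 6 higher members and Id2 passed in the same directions. Their log2 fold changes were larger in size there for Nfil3 (1.24), Prdm1 (1.13), Irf4 (0.96), Ahr (0.91), Maf (0.64), Batf (0.57) and Id2 (-0.82). Bhlhe40 did not pass (-0.12, adjusted p = 0.211). Zeb2, a zinc finger repressor of terminal effector cells, changed sign. Among T cells it was at 73.0, 46.1, 58.0, 88.3 and 40.8 CPM in Foxp3+ cells and 89.3, 60.5, 83.5, 179 and 79.0 CPM in Foxp3- Cd4+ cells, lower in Foxp3+ cells of every library. Its log2 fold change was -0.65 (SE 0.10, adjusted p = 0.001). In cells with at least 3 UMIs of C1qa, C1qb, C1qc or Csf1r, Zeb2 was at 648, 543, 579.9, 504 and 583 CPM.

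**Figure D2:**
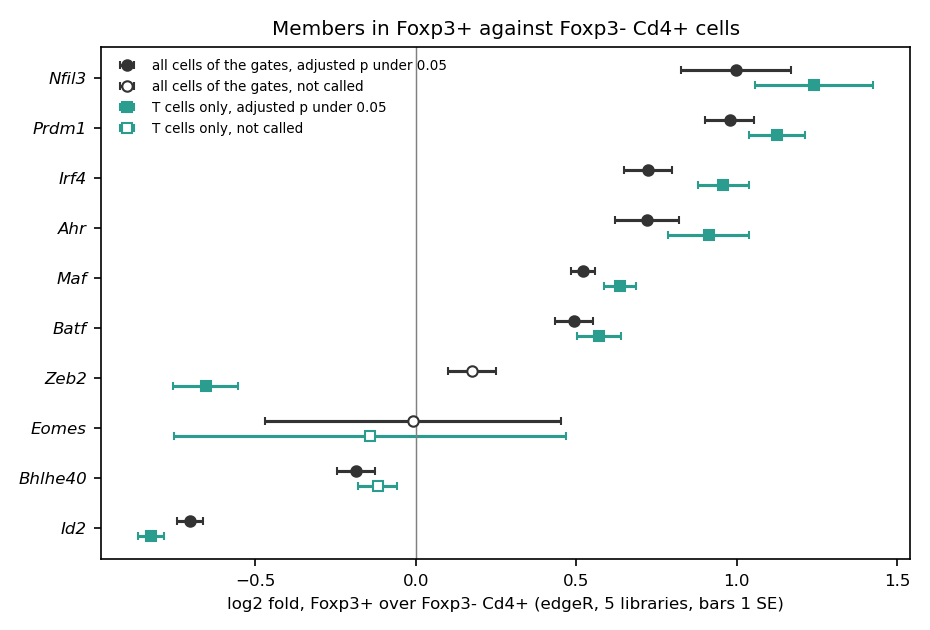
log2 fold change of Foxp3+ over Foxp3- Cd4+ cells (x axis) for the 10 genes, in all cells of the gates and in T cells only; bars are 1 SE and filled symbols have an adjusted p under 0.05. Nfil3, Prdm1, Irf4, Ahr, Maf and Batf lie right of 0 and Id2 left of 0 in both sets, and Zeb2 moves from 0.18 to -0.65.

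**Figure D3:**
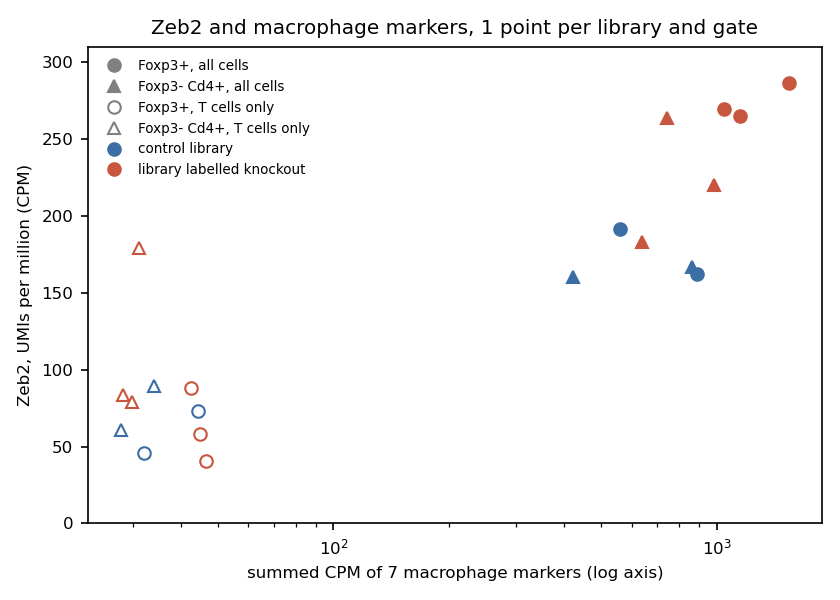
Zeb2 level (CPM, y axis) against the summed level of 7 macrophage markers (CPM, log x axis), 1 point per library and gate; circles are Foxp3+ and triangles Foxp3- Cd4+ cells, filled for all cells and open for T cells only. In all cells Zeb2 runs from 161 to 287 CPM with macrophage sums above 400 CPM. In T cells only it runs from 40.8 to 179 CPM with sums below 50 CPM, which the filter itself lowers.

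Genes around the members were grouped in 5 lists. Of the partner and feedback genes, 18 of 20 could be tested, and 8 were higher and 3 lower in Foxp3+ cells, with a median log2 fold change of 0.14. Junb (0.39, adjusted p = 2.43e-05), Jund (0.38, 4.11e-05) and Jun (0.48, 0.000377), AP-1 partners of Batf, were higher. Zfp683 (Hobit, -1.20, 6.02e-05), Tbx21 (T-bet, -0.74, 0.000151) and Tcf3 (an E protein, -0.18, 0.0387) were lower. Of 10 factors of naive and memory cells, 1 was higher, Foxo1 (0.21, adjusted p = 0.00159), and 4 were lower, led by Tcf7 (-0.67, 6.5e-05), Bach2 (-0.30, 0.000835) and Satb1 (-0.26, 0.00189). All 9 lineage factors passed, 5 higher and 4 lower. Ikzf2 (Helios, 2.85), Gata3 (0.39) and Pparg (1.07) led the first, and Tbx21, Runx3 (-0.33) and Runx2 (-0.19) the second.

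Of 22 testable genes known as targets or companions in effector cells, 15 were higher and 4 lower (median 0.97). The checkpoint receptor Ctla4 (2.58, adjusted p = 4.28e-07), the integrin Itgae (CD103, 3.25, 4.75e-06) and the costimulatory receptor Tnfrsf18 (0.91, 7.42e-06) were higher. The chemokine receptor Cxcr6 (-1.07, 4.75e-06), the chemokine Ccl5 (-0.74, 8.4e-06) and the cytokine Il21 (-1.79, 0.00731) were lower. Of 10 immediate early and dissociation genes, 5 were higher and none lower, with Dusp1 (0.92), Jun and Nr4a1 (0.95) in front.

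The share of cells with a UMI was taken after each cell was thinned to 2000 UMIs. Prdm1 was detected in 9.88, 8.97, 9.97, 11.6 and 10.1% of Foxp3+ cells and 4.42, 3.56, 4.15, 5.36 and 5.40% of Foxp3- Cd4+ cells. Maf was detected in 39.6, 34.4, 43.5, 39.4 and 41.2% against 25.4, 22.8, 33.8, 28.0 and 25.1%. Id2 was detected in 31.0, 35.7, 40.5, 46.3 and 49.0% against 54.3, 51.2, 63.2, 64.0 and 67.0%, and Nfil3 in 1.00, 2.38, 1.99, 2.00 and 1.74% against 0.585, 0.775, 0.457, 0.906 and 0.549%. Before thinning the ranges were 22.2 to 49.5% of Foxp3+ cells for Prdm1, 59.8 to 80.6% for Maf, 52.5 to 66.4% for Id2 and 4.18 to 9.17% for Nfil3. In cells gated on at least 2 UMIs of B cell genes, the thinned ranges were 4.55 to 13.0% for Prdm1, 16.7 to 33.8% for Maf, 36.4 to 59.2% for Id2 and 0 to 0.397% for Nfil3. All Prdm1 shares of Foxp3+ cells, and some or all of the Id2 shares of both gates and of the Prdm1 and Maf shares of Foxp3- Cd4+ cells, lie inside or below the range of that comparison gate. The shares of Prdm1, Id2 and Maf are therefore not read further. Those of Nfil3 lie above the range of the B cell gate in both gates. As a mean of libraries, however, Nfil3 was at 6.08 CPM in cells with at least 3 UMIs of C1qa, C1qb, C1qc or Csf1r. Cells with at least 2 UMIs of Slc34a1, Lrp2 or Miox and no Cd3 or Trac UMI had 13.9 CPM, with libraries from 0 to 24.2 CPM. The means were 8.00 CPM in Foxp3+ and 3.76 CPM in Foxp3- Cd4+ cells. Eomes was found in 0.500, 0.549, 0, 0.501 and 0% of Foxp3+ cells, at the level of the B cell gate (0 to 0.794%).

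Within Foxp3+ cells, no member passed between Il1rl1+ and Il1rl1- cells. With the library as a term, 149 of 10556 genes (1.41%) passed in edgeR, 80 higher and 69 lower in Il1rl1+ cells. DESeq2 called 111 genes, 60 higher and 51 lower, and no member either. In edgeR, 5 members had an unadjusted p under 0.05. Irf4 was higher in Il1rl1+ cells of all 5 libraries (23.7, 28.5, 27.1, 20.7 and 17.3 CPM against 22.0, 21.7, 25.0, 16.1 and 13.4 CPM) with a log2 fold change of 0.21 (SE 0.12, adjusted p = 0.576). Batf was higher in 3 of 5 (0.23, SE 0.10, adjusted p = 0.419). Nfil3 had 0.63 (SE 0.24, adjusted p = 0.304) and Eomes -0.72 (SE 0.25, adjusted p = 0.261). Maf, Prdm1, Ahr, Bhlhe40 and Id2 had log2 fold changes of -0.14, 0.13, 0.23, 0.15 and 0.02.

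Zeb2 was the member with the largest difference per standard error in that split. Over all cells it was at 193, 288, 331, 330.2 and 269.6 CPM in Il1rl1+ and 191, 115, 156, 232 and 292 CPM in Il1rl1- cells, with log2 fold change 0.50 (SE 0.16, adjusted p = 0.196). Among T cells only it was at 88.5, 68.4, 70.0, 125 and 66.9 CPM against 63.5, 39.5, 40.3, 73.4 and 31.5 CPM, higher in Il1rl1+ cells of all 5 libraries. There the log2 fold change was 0.68 (SE 0.10) and passed (adjusted p = 0.00254), as 172 of 9481 genes did (1.81%). Zeb2 passed under 3 of 15 alternatives, T cells only among them. Macrophage markers in these T cells summed to 54.1, 27.6, 59.6, 56.7 and 68.8 against 38.2, 33.2, 22.9, 36.9 and 38.5 CPM. Dendritic cell markers (Flt3, Xcr1 and Cd209a) summed to 40.5, 13.2, 36.6, 46.9 and 11.8 against 23.6, 10.9, 16.7, 3.66 and 2.10 CPM. The part of these markers in the Zeb2 split was not tested. Il1rl1+ cells were also deeper, with medians of 7407 to 19321 UMIs per cell by library against 4985 to 15572 in Il1rl1- cells. In the same split, over all cells, 3 of 19 testable companion genes were higher: Klrg1, an inhibitory receptor of effector cells (1.59, adjusted p = 0.00177), Tnfrsf4 (OX40, 0.39, 0.0124) and the chemokine receptor Ccr2 (0.36, 0.0136). Of 9 lineage factors 2 were higher, Gata3 (0.58, adjusted p = 0.00812) and Pparg (1.37, 0.0169). Of 10 naive and memory factors 2 were lower, Foxo1 (-0.25, 0.0305) and Tcf7 (-0.34, 0.0433). None of 17 partner genes and none of 10 immediate early genes passed.

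Between the knockout label and the controls, no member passed the test in any gate. edgeR called 0 of 11519 genes (0%) in Foxp3+ cells, 1 of 10805 (0.00925%) in Foxp3+ Il1rl1+ cells, 0 of 10868 (0%) in Foxp3+ Il1rl1- cells and 0 of 13959 (0%) in Foxp3- Cd4+ cells. At an unadjusted p under 0.05, edgeR had 752, 667, 648 and 685 genes in these 4 gates, with 4, 3, 3 and 2 members among them, and DESeq2 called 51, 19, 12 and 57 genes at an adjusted p under 0.05. In T cells only the counts were 0, 1 (0.0105% of 9505 genes, higher), 0 and 0, with no member among them. Without overlap between the groups in Foxp3+ cells were 5 of 10 members, against 22.2% of all genes (14.9% higher, 7.27% lower): Maf, Bhlhe40, Id2 and Zeb2 lay higher under the knockout label and Eomes lower. In Il1rl1+ cells there were 3, Id2 higher and Batf and Eomes lower, against 21.5% of genes (12.7% and 8.79%). Il1rl1- cells had 5, with Maf, Ahr, Bhlhe40 and Id2 higher and Eomes lower, against 21.1% (14.0% and 7.15%). Foxp3- Cd4+ cells had 4, with Maf, Prdm1, Bhlhe40 and Zeb2 higher, against 18.8% (12.4% and 6.38%). Of T cells alone, the members without overlap numbered 5 in Foxp3+ cells (Maf, Ahr, Bhlhe40 and Id2 higher, Eomes lower; 19.8% of genes, 12.4% higher and 7.39% lower) and 3 in Il1rl1+ cells (Id2 higher, Batf and Nfil3 lower; 20.7%, 12.0% and 8.71%). They numbered 5 in Il1rl1- cells (those without overlap in all cells of that gate; 19.7%, 12.0% and 7.67%) and 2 in Foxp3- Cd4+ cells (Prdm1 and Bhlhe40 higher; 18.5%, 11.4% and 7.06%). The members' median log2 fold change was 0.10 in Foxp3+ cells, -0.06 in their Il1rl1+ part (4 of 10 positive), 0.19 in their Il1rl1- part and 0.24 in Foxp3- Cd4+ cells. Over all genes tested it was -0.01 in the Il1rl1+ part and 0.00 in the other 3 gates.

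Bhlhe40, a stress- and activation-responsive repressor linked to inflammatory cytokine production, lay higher under the knockout label in Foxp3+ cells, their Il1rl1- part and Foxp3- Cd4+ cells. It was at 50.2 and 39.5 CPM in control Foxp3+ cells and at 58.2, 75.9 and 61.9 CPM under the knockout label. Foxp3- Cd4+ cells had it at 48.7 and 40.5 CPM against 64.8, 98.5 and 66.9 CPM, again with every library labelled knockout above both controls and knockout 2 the highest. The log2 fold changes were 0.50 (SE 0.16, unadjusted p = 0.0131, adjusted p = 0.596) in Foxp3+ cells and 0.74 (SE 0.20, unadjusted p = 0.00933, adjusted p = 0.994) in Foxp3- Cd4+ cells. Among T cells they were 0.54 (SE 0.16, adjusted p = 0.762) and 0.79 (SE 0.21, adjusted p = 0.947), still without overlap. In Foxp3+ Il1rl1- cells Bhlhe40 was at 47.5 and 38.5 CPM against 65.2, 67.0 and 60.3 CPM (0.52, SE 0.14, adjusted p = 0.56), again without overlap. In Il1rl1+ cells the log2 fold change was similar (0.49, SE 0.24, adjusted p = 0.828), but the groups overlapped. The controls there had 42.1 to 55.0 CPM and the libraries labelled knockout 54.4 to 93.4 CPM.

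Id2 showed a smaller difference of the same sign. It was at 399.6 and 376 CPM in control Foxp3+ cells against 479, 469.7 and 572 CPM (0.35, SE 0.12, adjusted p = 0.659), with knockout 3 highest. Among Foxp3- Cd4+ cells control 1 and knockout 2 were level at 697 CPM, and the groups overlapped (0.25, SE 0.14). Maf was at 266 and 235 CPM in control Foxp3+ cells against 346, 271 and 280.0 CPM (0.22, SE 0.13, adjusted p = 0.916), where control 1 and knockout 2 are nearly equal. Prdm1, Ahr, Irf4 and Nfil3 in Foxp3+ cells had log2 fold changes of 0.04, 0.16, -0.27 and -0.49, each with overlapping groups. Foxp3- Cd4+ cells had Prdm1 at 23.5 and 19.6 CPM against 26.2, 29.0 and 26.2 CPM without overlap (0.29, SE 0.12, adjusted p = 0.994).

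For Batf the groups did not overlap in the Il1rl1+ part of the Foxp3+ cells. There it was at 146 and 159 CPM in the controls and at 117, 102 and 92.2 CPM under the knockout label, every one of the latter below both controls. The log2 fold change was -0.56 (SE 0.13, unadjusted p = 0.00165, adjusted p = 0.396). In Il1rl1- cells Batf was at 102 and 101 CPM against 123, 95.7 and 101 CPM, and the log2 fold change was 0.02 (SE 0.13). A test of the group by Il1rl1-gate term, added after seeing the data, gave Batf -0.58 (SE 0.12, unadjusted p = 0.00042, adjusted p = 0.159), and 5 of 11216 genes passed (0.0446%), none of them members. For T cells only the term was -0.54 (adjusted p = 0.46), and in cells thinned to 2000 UMIs it was 0.20, the opposite sign. Gates were set again on the thinned counts, which left 68, 34, 37, 24 and 14 Il1rl1+ cells. The Il1rl1+ gate selects on a UMI of the targeted gene, so which cells enter it can itself differ between the groups. Treg markers (Foxp3, Ikzf2, Il2ra and Ctla4) in the Il1rl1+ gate summed to 2361 to 3242 CPM in the controls and 1786 to 2196 CPM under the knockout label, with 4 of 4 lower on average. Foxp3, which sets the gate, is in these sums. In T cells only the sums were 3081 to 3506 CPM against 2166 to 2645 CPM. Their part in the Batf values was not tested. The share of Foxp3+ cells in the Il1rl1+ gate was 31.0 and 18.5% in the controls and 53.0, 23.5 and 21.7% under the knockout label. These shares were taken before thinning, and depth differed between the libraries. With gates set on the thinned counts they were 18.33 and 11.04% in the controls and 26.24, 6.70 and 9.59% under the knockout label. There knockout 1 lay above both controls, and knockout 2 and knockout 3 lay below both.

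Zeb2 lay higher under the knockout label in all cells of the Foxp3+ gate and not in T cells only. It was at 192 and 162 CPM in the controls against 269.6, 265 and 287 CPM (0.59, SE 0.11, unadjusted p = 0.000675, adjusted p = 0.41), without overlap. DESeq2 called it (0.58, adjusted p = 0.00158). Among T cells Zeb2 was at 73.0 and 46.1 CPM against 58.0, 88.3 and 40.8 CPM (0.05, SE 0.28), with the groups overlapping, and the thinned value was -0.24. The macrophage sums over all cells of this gate were also higher under the knockout label. Of the controls, control 1 had the lower sum and the higher Zeb2 level. The part of macrophage markers in the Zeb2 values was not tested. Zeb2 in Foxp3- Cd4+ cells was at 161 and 167 CPM against 183, 264 and 220.3 CPM (0.40, SE 0.16, adjusted p = 0.994). In T cells of that gate the values were 89.3 and 60.5 CPM against 83.5, 179 and 79.0 CPM (0.57, SE 0.38), with knockout 2 far above the rest and the groups overlapping. The mean macrophage sum there, which the filter itself lowers, was 31.0 CPM in the controls and 29.7 CPM under the knockout label.

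Eomes, a T-box factor, was the member with the largest negative fold in Foxp3+ cells. It was at 7.07 and 12.3 CPM in the controls against 2.50, 3.49 and 1.15 CPM (-1.90, SE 0.42, unadjusted p = 0.00186, adjusted p = 0.417). These levels rest on 128, 60, 13, 30 and 4 UMIs, and in control 2 a single cell held 30 of 60. T cells alone held 53, 43, 7, 11 and 0 UMIs, and 3 cells held 90.7% of those of control 2. The log2 fold change in T cells only was -2.22 (SE 0.72, adjusted p = 0.852). NK cell markers (Ncr1, Klrb1c and Klre1) summed to 13.5 to 20.2 CPM in control Foxp3+ cells and 3.14 to 10.95 CPM under the knockout label, with 3 of 3 lower on average. CD8 T cell markers (Cd8a and Cd8b1) summed to 34.4 to 71.0 CPM against 17.9 to 33.8 CPM, with 2 of 2 lower. B cell markers (4 of 4) and dendritic cell markers (3 of 3) were also lower on average. In T cells only the NK cell sum was 4.05 and 0 CPM in the controls and 5.89, 3.41 and 0 CPM under the knockout label. The CD8 sum there was 21.0 and 15.4 CPM against 16.3, 6.62 and 12.4 CPM, with overlap. The filter itself lowers these sums. The part of these markers in the Eomes values was not tested. Eomes in Foxp3- Cd4+ cells was at 7.23 and 1.92 CPM against 6.49, 6.17 and 3.28 CPM, with overlap, and the group by Foxp3-gate term was -2.08 (SE 0.67, adjusted p = 0.543). That term passed for 7 of 13949 genes (0.0502%) and for none of the members. Eomes ran from -3.76 without control 1, where it passed (adjusted p = 0.00797), to -1.09 without control 2 (adjusted p = 0.393).

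**Figure D4:**
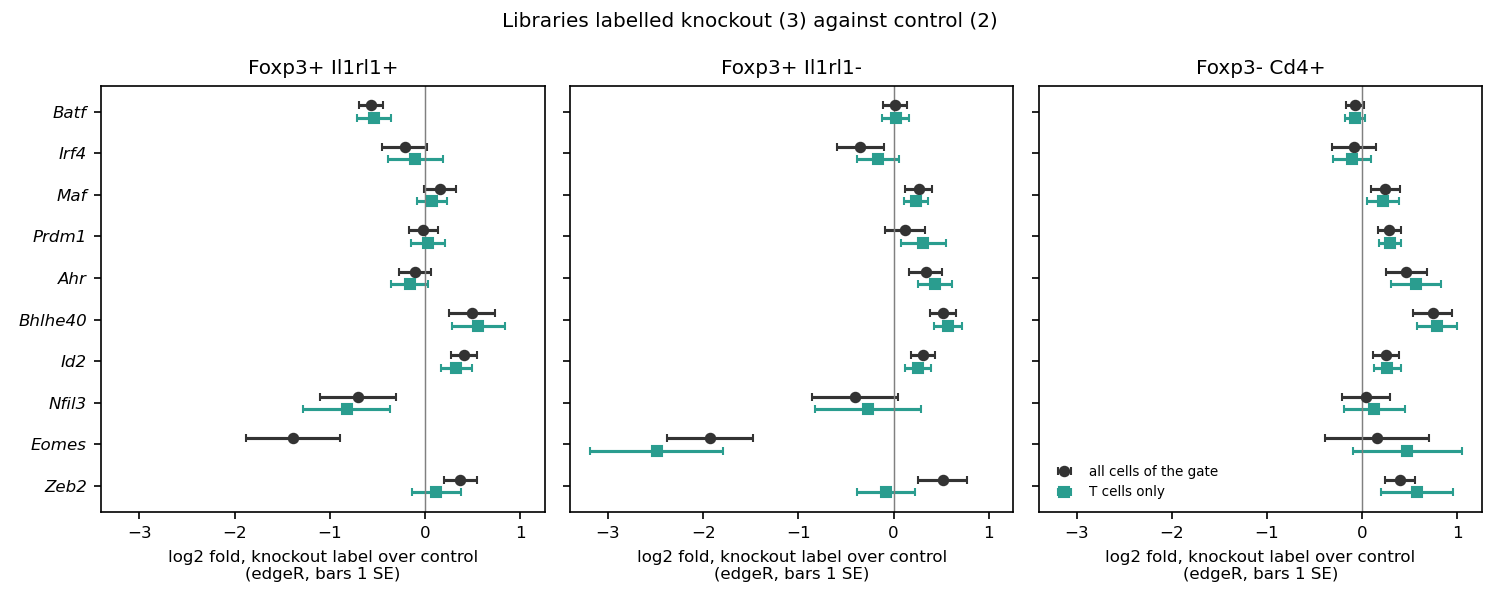
log2 fold change of the knockout label over control (x axis) in Foxp3+ Il1rl1+, Foxp3+ Il1rl1- and Foxp3- Cd4+ cells, for all cells of the gate and for T cells only; bars are 1 SE, and no value passed an adjusted p of 0.05. Batf is at -0.56 in Il1rl1+ cells and 0.02 in Il1rl1- cells, and Bhlhe40 is right of 0 in all 3 gates; Eomes in Il1rl1+ T cells fell under the count filter.

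With each of the 5 libraries left out in turn, the log2 fold changes of the knockout label in Foxp3+ cells ran from 0.35 to 0.70 for Bhlhe40, from 0.25 to 0.39 for Id2 and from 0.10 to 0.31 for Maf. They ran from 0.48 to 0.72 for Zeb2 and from -2.33 to -1.50 for Eomes. Bhlhe40, Eomes and Zeb2 were smallest in size without control 2, Maf without knockout 1 and Id2 without knockout 3. Batf in Il1rl1+ cells ran from -0.66 to -0.50, and Bhlhe40 in Foxp3- Cd4+ cells from 0.52 (without knockout 2) to 0.88 (without control 1). None of these values passed, and the smallest adjusted p was 0.19, for Zeb2 without control 1. Leaving out a control leaves 1 control library, which is assumed to vary like the others.

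None of the genes of the 5 lists passed between the knockout label and the controls in any gate. The 10 naive and memory factors had a median log2 fold change of -0.40 in Foxp3+ cells, with 0 of 10 positive, and -0.52 in Foxp3- Cd4+ cells, again with 0 of 10 positive. Foxp1 (-0.43, adjusted p = 0.53) and Bach2 (-0.49, 0.567) led in Foxp3+ cells, and Tcf7 (-0.62, 0.935) and Foxp1 (-0.54, 0.994) in Foxp3- Cd4+ cells. The companion genes had a median of 0.02 in Foxp3+ cells and 0.45 in Foxp3- Cd4+ cells, where 19 of 22 were positive. Tnfrsf9 (4-1BB) had 1.29 (adjusted p = 0.395) and Tnfrsf4 0.60 (0.994). Of the lineage factors, Runx2 (0.74, 0.417) and Tbx21 (0.60, 0.472) had the smallest p in Foxp3+ cells.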

How the data were processed

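For each of 5 libraries the authors deposited a matrix of unnormalized UMI counts (genes by barcodes). Its header names Cell Ranger 8.0.0, and mm10 and Seurat 5.1.0 are named in the submitters' processing notes. All 40778 barcodes were read. Cells needed at least 500 genes and a mitochondrial share under 10%, and 38417 met both. Total UMIs per library ran from 31104939 to 152275841. Groups came from the genotype labels. No doublet caller was run, and the alternatives that leave out the 5% of cells with most UMIs, or keep T cells only, stand in for one.

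Within each gate the counts were added up per library. The sums went into edgeR 4.0.16 under R 4.3.3 (quasi-likelihood F test, filterByExpr, TMM), with Benjamini-Hochberg adjustment over all genes tested and a threshold of 0.05. Comparisons of gates within libraries had the library as a term. CPM is UMIs per 1000000 UMIs of the gate. Shares of cells with a UMI used cells thinned to 2000 UMIs and leave out shallower cells. Intervals for shares would cover counting error only. Tables and plots used pandas 2.3.3, matplotlib 3.10.9, scipy 1.17.1 and numpy 2.4.6 in Python 3.11.15. The tests were tested on simulated data. For the knockout label against control, edgeR recovered 62, 52, 68 and 68% of simulated 2-fold changes. These are the shares in Foxp3+, Foxp3+ Il1rl1+, Foxp3+ Il1rl1- and Foxp3- Cd4+ cells. Of the smaller changes simulated it recovered 26, 14, 24 and 26%, so a difference of such size can fail to pass.

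Alternatives were DESeq2 1.42.0, a replicate block, RLE normalization, genes of any count, no library term, each library left out, lenient and strict cell filters, thinned cells, at least 2 Foxp3 UMIs, and both cell sets above. In the tests of thinned cells the gates were set again on the thinned counts. The 10 members are always named. Of each list, the genes named are the 3 per direction that passed with the lowest p, or the 2 with the lowest p where none passed, for the comparisons described. Some planned results (states within Foxp3- Cd4+ cells, the genes most like each member, and 2 genes of the lists) are not reported here. The members and lists were chosen with earlier results of these data known.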

Additional observations from a re-analysis of the deposited data

How the results depend on the processing

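Of the 1084 values of members under alternatives, 996 kept their direction and side of the threshold, 13 passed only under the alternative, 11 no longer passed and 64 changed sign. The 6 members higher in Foxp3+ cells (Batf, Irf4, Maf, Prdm1, Ahr and Nfil3) and Id2, which was lower, passed in the same direction under all 15 alternatives run for each, with the adjusted p at most 0.0276.

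Counts of genes that passed moved with the tool and filter. For the knockout label against control in Foxp3+ cells (0 genes), DESeq2 gave 51, no filter on low counts 452, thinned cells 1, and leaving out a library 0 to 33, the highest without control 2. In Il1rl1+ cells (1 gene) the same settings gave 19, 312, 0 and 0 to 140 (highest without control 2), and leaving out the top 5% of cells by UMIs gave 0. In Il1rl1- cells (0 genes) they gave 12, 339, 4 and 0 to 18 (highest without knockout 1). In Foxp3- Cd4+ cells (0 genes) DESeq2 gave 57, no filter 191 and the replicate block 1. Without the filter Bhlhe40, Zeb2 and Eomes passed in Foxp3+ cells, Batf in Il1rl1+ cells, Eomes and Zeb2 in Il1rl1- cells, and Bhlhe40 in Foxp3- Cd4+ cells. For Foxp3+ against Foxp3- Cd4+ cells (2787) no library term gave 846 and thinned cells 1336. For the Il1rl1 split (149) no filter gave 564, no library term 1, thinned cells 25, at least 2 Foxp3 UMIs 61, and leaving out a library 44 to 133, the lowest without knockout 3. For the group by Foxp3-gate term (7) DESeq2 gave 21, no filter 297, T cells only 2, the top 5% left out 2, the lenient filter 11, at least 2 Foxp3 UMIs 13, and leaving out a library 2 to 39, the highest without control 2. For the group by Il1rl1-gate term (5) DESeq2 gave 1, thinned cells 1, and leaving out a library 1 to 70, the highest without control 2. The causes were not tested, beyond the fewer UMIs that thinning leaves.

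Sign changes, as log2 fold changes, were as follows. For the knockout label in Foxp3+ cells, thinned cells gave Irf4 0.26 and Zeb2 -0.24, and leaving out a library gave Prdm1 -0.086 to 0.13 and Nfil3 -0.97 to 0.037. In Il1rl1+ cells Prdm1 was 0.030 in T cells only and 0.11 with at least 2 Foxp3 UMIs, thinned cells gave Batf 0.018 and Id2 -0.24, and the top 5% left out gave Maf -0.069. Leaving out a library gave Prdm1 -0.14 to 0.20, Ahr -0.25 to 0.14 and Maf -0.0034 to 0.36 there. In Il1rl1- cells Zeb2 was -0.081 in T cells only and -0.14 in thinned cells, Batf was -0.22 in thinned cells and -0.018 with at least 2 Foxp3 UMIs, and Irf4 was 0.016 in thinned cells. Leaving out a library gave Nfil3 -1.04 to 0.34, Batf -0.094 to 0.093 and Prdm1 -0.11 to 0.26 there. In Foxp3- Cd4+ cells thinned cells gave Nfil3 -0.046 and Eomes -0.16, and leaving out a library gave Nfil3 -0.20 to 0.31, Eomes -0.47 to 1.43 and Irf4 -0.30 to 0.092.

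For Foxp3+ against Foxp3- Cd4+ cells Zeb2 was -0.65 in T cells only, -0.93 in thinned cells and -0.32 with the top 5% left out. Eomes was 0.058 without the library term, 0.0079 with the top 5% left out, and -0.66 to 0.24 with a library left out. In the Il1rl1 split thinned cells gave Bhlhe40 -0.27. For the group by Foxp3-gate term, T cells only gave Id2 -0.0027 and Zeb2 -0.51, the top 5% left out gave Zeb2 -0.14, and thinned cells gave Irf4 0.36, Maf 0.10, Id2 -0.10, Nfil3 0.082 and Zeb2 -1.02. Leaving out a library gave Maf -0.10 to 0.041 and Ahr -0.57 to 0.011. For the group by Il1rl1-gate term, T cells only gave Zeb2 0.27 and thinned cells Batf 0.20, Prdm1 0.73 and Id2 -0.56. Leaving out a library gave Irf4 -0.090 to 0.18, Maf -0.22 to 0.030, Prdm1 -0.29 to 0.082, Bhlhe40 -0.25 to 0.21 and Zeb2 -0.76 to 0.50.

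Replicate numbers name no shared source in the labels, and same-numbered libraries did not deviate together (correlations of -0.09 to 0.15 over the 4 gates). With the replicate block the counts were 0, 1, 0 and 1 genes in Foxp3+, Il1rl1+, Il1rl1- and Foxp3- Cd4+ cells, Prdm1 in Il1rl1+ cells was 0.0061 and Irf4 in Foxp3- Cd4+ cells 0.081. In Foxp3+ cells Eomes rests on 4 to 128 and Nfil3 on 17 to 118 UMIs per library, which limits their precision.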

Other observations

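Single T cells of the Foxp3- Cd4+ gate, thinned to 2000 UMIs, held UMIs of both Bhlhe40 and Zeb2 in 473 cells, against 275 expected if both were detected independently within each library. The ratio was 1.72 over all libraries, with 1.55 to 2.13 in the 5 libraries, all above 1. Among Foxp3+ cells the count was 26 against 15.5 expected, a ratio of 1.68. Bhlhe40 is an activation-responsive repressor and Zeb2 a factor of terminal effector cells. In Foxp3- Cd4+ cells Zeb2 was also above 1 in 5 libraries with Prdm1 (ratio 1.36), Id2 (1.12) and Eomes (1.39). With Maf it was above 1 in 4 libraries, and with Batf, Ahr and Nfil3 in 3. Zeb2 was at 504 to 648 CPM in cells with at least 3 UMIs of C1qa, C1qb, C1qc or Csf1r. The part of macrophage RNA in these counts was not tested. Irf4 and Zeb2 were found together in 61 Foxp3- Cd4+ cells against 41.7 expected (ratio 1.46, with 1.39 to 1.61 by library), but in 3 Foxp3+ cells against 5.29 expected (ratio 0.567). Prdm1 and Ahr were found together in 28 Foxp3+ cells against 17.4 expected (ratio 1.61, with 1.24 to 2.34 by library), and in 51 Foxp3- Cd4+ cells against 38.7 expected (ratio 1.32, above 1 in 3 of 5 libraries). These pairs were chosen after their values were seen, and the ratios are descriptions without a test.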
